A study of Mus musculus with 10 samples.

Results

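Cells chosen by marker genes of mural cells, the pericytes and vascular smooth muscle cells that wrap blood vessels, numbered 221 of 10914 single cells from the stromal vascular fraction of mouse inguinal white adipose tissue. They are called mural by that rule, although 31 of them also held mammary transcripts that go against the name. At least 2 transcripts of immune marker genes were found in 100 of them, a number set beside all cells further below. A cell was taken when its UMIs (unique molecular identifiers, each marking 1 captured transcript) summed to at least 2 over Rgs5, Myh11, Acta2, Myl9, Mylk, Notch3 and Abcc9. That sum also had to exceed the sum over the endothelial genes Kdr, Btnl9, Ptprb, Cdh5, Gpihbp1, Rasip1 and Flt1, and Dcn, Col1a1, Col1a2, Col3a1 and Lum together had to stay under 3% of the cell's UMIs. The study profiled 1 lean 7-week-old Bbs8-/- mouse (KO), which lacks a subunit of the ciliary BBSome complex in every cell, and 1 Bbs8+/+ mouse (WT), to ask how a ciliary defect alters the cells of this depot. Seq-Well arrays gave 5 barcode sets per mouse, which are technical parts of 1 animal and not replicates, and which could not be assigned to single labelled samples.

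With 1 mouse per genotype no comparison between genotypes could be tested, and every difference below describes these 2 animals. Intervals are 95% and cover counting error only, exact Poisson for levels, Clopper-Pearson for shares, Newcombe for differences of shares and exact conditional for folds. Levels are CPM, UMIs of a gene per 1000000 UMIs of the cells named. The cells held a median of 352 UMIs and 221 genes, against 255 UMIs over all cells, and 101475 UMIs together, 65562 in the KO and 35913 in the WT. The targeted gene, listed as Ttc8, gave 5 UMIs in 1 WT set and 0 in the other 9 sets. All WT cells held 715989 UMIs and all KO cells 3144195. Ttc8 had 0 UMIs in all mural cells, so their depth does not check the genotype.

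Pericytes sit within the capillary basement membrane, are recruited by endothelial PDGF-B through the receptor PDGFRB, and carry the KATP channel formed by Abcc9 and Kcnj8. Smooth muscle cells line larger vessels and contract when myosin light chain kinase (Mylk) phosphorylates the light chain Myl9 bound to the heavy chain Myh11 on Acta2 filaments. In adipose tissue both lie next to the adipocyte progenitors, and the inguinal depot of the mouse also surrounds the mammary gland, whose myoepithelial cells use the same contractile proteins.

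The marker sum was low in most members. It was 2 in 84 cells, 3 in 41 and at least 4 in 96, and 24 cells reached 10, while 244 cells with a sum of 1 that met the other conditions stayed outside. Of the 318 cells with a sum of at least 2, the endothelial condition removed 57 and the stromal condition 40. Genes of the pericyte list that chose no cell, such as Pdgfrb, Steap4 and Kcnj8, summed to 318 CPM in 7308 cells that met the stromal condition without a mural UMI. They summed to 1049 CPM in cells just outside at a sum of 1, 2042 CPM at 2, 2309 CPM at 3 and 4614 CPM at 4 or more. The contractile list without the rule's genes followed the same order, at 1831, 2271, 3946, 5294 and 9265 CPM. Members at the minimum sum thus carried lower levels of the independent markers than those with more. Immune markers went the other way, at 19242, 11979, 10454, 7208 and 3885 CPM in the same order. The stromal genes of the rule stood at 6059, 9638, 9277, 7941 and 4359 CPM. In both, members at a sum of 2 lay closer to the cells just outside than to members at 4 or more.

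Of the genes that chose the cells, Rgs5, a regulator of G-protein signalling, was the highest at 3833 CPM in members, against 454 CPM in endothelial cells, 33.8 CPM in fibroblasts and 29.2 CPM in B cells, a type that should lack it. Smooth muscle myosin Myh11 stood at 2858 CPM and smooth muscle actin Acta2 at 1557 CPM, followed by Myl9 at 1025, Mylk at 946, the sulfonylurea receptor Abcc9 at 453 and the receptor Notch3 at 256 CPM. The members were chosen by the UMI counts of these genes, so the values restate the selection and carry no test.

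Genes the rule did not use included further pericyte and smooth muscle genes, and mammary genes too. Over 713 genes with at least 20 UMIs in members, 113 (15.8%) were more than 2-fold above all other cells on a log2 scale with 50 CPM added. Pericyte genes passed that level in 5 of 6 measured members, contractile genes in 7 of 9, vasoactive receptors and channels in 3 of 4 and basement membrane genes in 5 of 13, with median log2 ratios of 1.84, 1.65, 2.19 and 0.39 against 0.25 over all 713. Mammary markers passed in 5 of 5, with a median of 2.08. Without the 31 cells that held at least 2 mammary-marker UMIs, 98 of 522 genes (18.8%) passed, and the 4 lists gave 5 of 6, 7 of 8, 3 of 4 and 5 of 13 with medians of 2.07, 1.87, 2.43 and 0.53, while no mammary marker reached the minimum. Since the minimum applied to the members, a gene low elsewhere could be measured only where members were high, and these counts describe the measured genes only. Both subunits of the nitric oxide receptor guanylyl cyclase were among the highest, with Gucy1b3 at 296 against 7.72 CPM (38.3-fold, 22.2 to 66.2) and Gucy1a3 at 394 against 18.1 CPM (21.8-fold, 14.4 to 32.7). Tagln, an actin-binding protein of smooth muscle, stood at 463 against 19.95 CPM (23.2-fold, 15.8 to 33.9), and the tropomyosin Tpm2 at 759 against 39.6 CPM (19.1-fold, 14.3 to 25.4). Ano1, a calcium-activated chloride channel that depolarises smooth muscle, was at 276 against 13.6 CPM (20.3-fold, 12.3 to 32.9), and the PDGF-B receptor Pdgfrb at 453 against 87.8 CPM (5.16-fold, 3.71 to 7.04).

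Further genes by the same ranking included Tpm1, the secreted glycoprotein Mfge8, the hypoxia-responsive factor Epas1, the phosphodiesterase Pde3a, and Tinagl1, Sncg, Cpe, Sema5a, Sema3g, Tm4sf1 and Tsc22d1. Endothelial genes outside the rule were present too, with Vwf 6.76-fold (4.03 to 10.8) and Mmrn2 5.44-fold (3.93 to 7.38) above the other cells, and 9 further endothelial markers summed to 1478 CPM in members against 4185 CPM in endothelial cells. Clu also ranked here, at 503 against 61.5 CPM, and lay mainly in cells described below that held mammary transcripts. The ATP-gated channel P2rx1 had 8 UMIs in members and 0 in all other cells, at least 98.8-fold higher taking 3 counts as the limit for 0. Markers of skeletal muscle were at 0 UMIs, of Schwann cells at 6 and of adipocytes at 10.

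The pericyte genes Cox4i2 and Ndufa4l2 had no UMI in any member. Kcnj8 gave 19 UMIs, Art3 18, Cspg4 17, Higd1b 12 and Gja4 11, each 13.3-fold or more above other cells but below the 20 UMIs required for the counts above. Type IV collagen differed less, with Col4a1 at 1094 against 960 CPM (1.14-fold, 0.934 to 1.38) over all members and 1253 CPM (1.30-fold, 1.06 to 1.58) without mammary-marker cells. Sparc stood at 3636 against 3743 CPM (0.972-fold, 0.874 to 1.08) and at 4175 CPM (1.12-fold, 1.00 to 1.24) without them. The 5 genes of the list past 2-fold were the matricellular Sparcl1 (3.12-fold, 2.74 to 3.55), the laminin chain Lamb2, typical of vascular basement membrane (2.70-fold, 1.98 to 3.61), the collagen-binding integrin subunits Itga1 (4.26-fold, 2.86 to 6.16) and Itgb1 (2.61-fold, 2.15 to 3.13), and dystroglycan, Dag1 (2.75-fold, 1.83 to 3.99).

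Members were split by their larger marker pair. Rgs5 plus Abcc9 exceeded Myh11 plus Acta2 in 101 cells, the reverse held in 103, and 17 had equal sums and stayed without a class. Only the first pair was seen in 79 cells, only the second in 82, both in 51 and neither in 9, and in 47 cells the sums differed by a single UMI. The classes are ranges of a sparse count, so cells near equality may fall on either side.

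**Figure D1:**
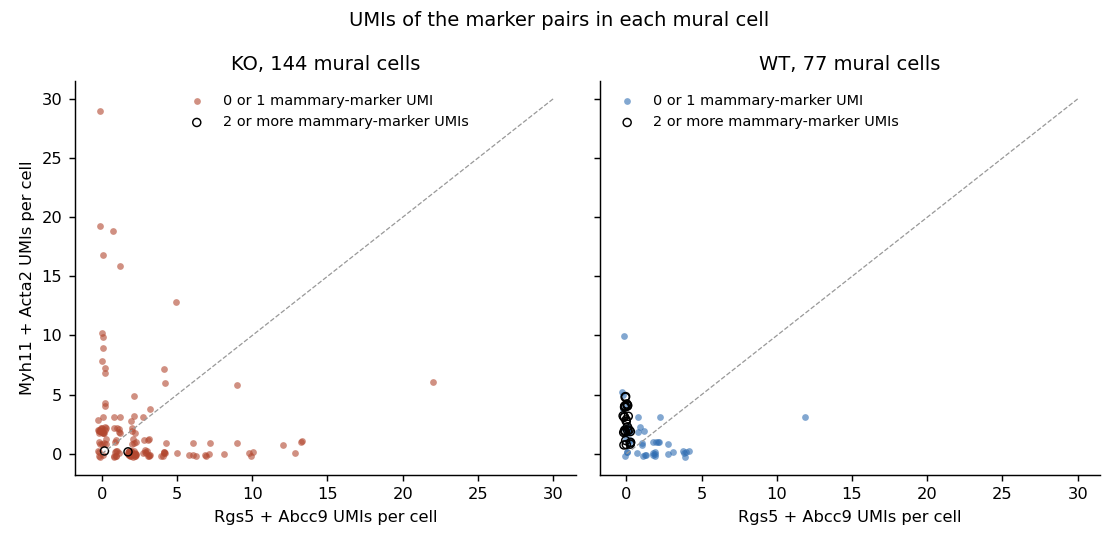
UMIs of Rgs5 plus Abcc9 (x axis) against Myh11 plus Acta2 (y axis) in each of the 144 KO and 77 WT mural cells, with small random offsets and a dashed line at equality. Open circles are the 31 cells with at least 2 mammary-marker UMIs, and 29 of them lie at or near 0 on the x axis in the WT panel.

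Most WT cells of the Myh11/Acta2-led class held transcripts of mammary epithelium. At least 2 UMIs of a list of mammary epithelial and myoepithelial markers were found in 29 of 50 such WT cells (58.0%, 43.2 to 71.8), 0 of 53 KO cells of that class (upper limit 6.72%) and 0 of 22 Rgs5/Abcc9-led WT cells. In the KO 2 members held such transcripts, both in set KO6_p1. The 5 WT sets had 1, 8, 7, 10 and 3 such cells among 16, 17, 10, 27 and 7 members, so they were found in every WT set. Among WT cells that should lack these genes the share was 3 of 105 endothelial cells (2.86%, median 279 UMIs), 9 of 809 fibroblasts (1.11%, median 294 UMIs) and 0 of 42 B cells (upper limit 8.41%). The 29 cells had a median of 450 UMIs.

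The 31 cells carried 111 UMIs of the secreted Wfdc18 in 25 cells, 29 of beta-casein (Csn2) in 14, 26 of Krt19, 25 of Krt18, 22 of Csn3 and 16 of Epcam, genes of luminal or milk-producing epithelium. Of myoepithelial or basal genes they held 11 UMIs of Krt14 in 7 cells, 6 of the oxytocin receptor Oxtr and 3 of Krt5. Among the 29 WT cells, 28 held a milk gene, 22 a luminal keratin or Epcam and 11 a basal keratin or Oxtr. They held 45 UMIs of Myh11 and 33 of Acta2 over all 31, and in the 29 WT cells Rgs5 and Abcc9 were at 0. All 8 UMIs of the smooth muscle calponin Cnn1 found in members lay in these cells, and the other 190 members had 0.

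This group goes against the label of a mural cell, so the main comparisons are given with and without it. The folds over other cells above include it, and without it those of Gucy1b3, Gucy1a3, Tagln, Tpm2, Ano1 and Pdgfrb became 46.4, 26.4, 25.1, 18.7, 19.3 and 6.11, while that of Clu became 2.33 (1.19 to 4.15). Mammary cells were also unequal between the mice outside the members, where 107 WT and 70 KO cells held at least 2 such UMIs, 136 of 1929 WT cells (7.05%) and 72 of 8985 KO cells (0.801%) with the members included. What these cells are was not tested.

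All members together were 1.60% of KO cells (144 of 8985, 1.35 to 1.88) and 3.99% of WT cells (77 of 1929, 3.16 to 4.96), a difference of -2.39 percentage points (-3.39 to -1.55). The KO sets lay at 1.04, 1.25, 1.60, 2.22 and 1.83% and the WT sets at 5.69, 5.12, 5.10, 3.52 and 1.99%, so the lowest WT set fell below the highest KO set. Without the mammary-marker cells the shares were 1.59% and 2.68%, a difference of -1.08 points (-1.97 to -0.374). The KO sets then lay between 1.04 and 2.25% and the WT sets at 5.70, 3.06, 1.73, 2.35 and 1.18%, so that 2 WT sets fell within the KO range. With the highest WT set, WT3_p1, left out the difference was -0.564 points. Endothelial cells were 5.97% of KO and 5.44% of WT cells, and mural cells were 21.2% against 42.3% of the mural and endothelial cells together, or 21.0% against 32.0% without the mammary-marker cells. Fibroblasts were 23.3% of KO and 41.9% of WT cells, so shares of all cells also move with the other types, and their part in the difference was not tested.

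The makeup of the members depended on whether the mammary-marker cells were counted. Rgs5/Abcc9-led cells were 59.8% of classed KO cells and 30.6% of classed WT cells, 29.3 points apart (15.1 to 41.6). Without those cells they were 59.5% (78 of 131) and 51.2% (22 of 43), 8.38 points apart with an interval that spans 0 (-8.22 to 24.9). Myh11/Acta2-led cells were 0.590% of KO and 2.59% of WT cells, and 0.595% and 1.17% without them. Members with a marker sum of 10 or more were 22 of 142 in the KO (15.5%, 9.97 to 22.5) and 2 of 48 in the WT (4.17%, 0.509 to 14.3), with median UMI totals of 347.5 and 322.5. The marker sum chose the cells, so these shares are a description only.

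**Figure D2:**
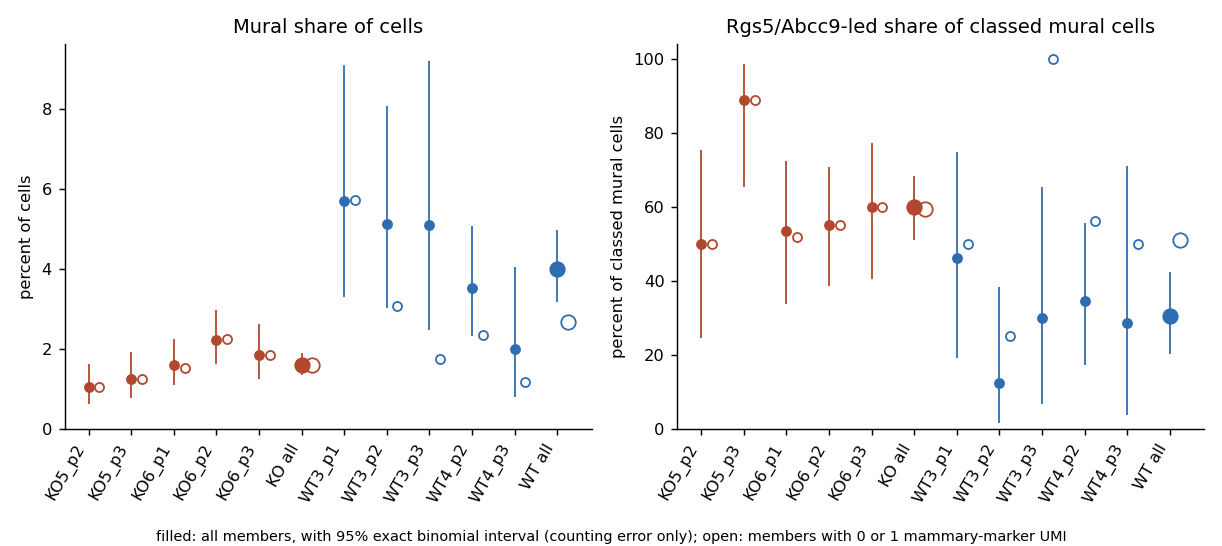
Mural share of cells (left) and Rgs5/Abcc9-led share of classed mural cells (right), in percent, for each of the 5 technical barcode sets of each mouse and for each mouse as a whole, with the mouse totals as larger points. Filled points with 95% exact binomial bars are all members, open points leave out cells with at least 2 mammary-marker UMIs and bring the WT total from 3.99 to 2.68% on the left and from 30.6 to 51.2% on the right.

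Between the classes, genes outside the 2 marker pairs were compared over the 100 Rgs5/Abcc9-led and 74 Myh11/Acta2-led cells without mammary transcripts. Of 466 genes with at least 20 UMIs, 35 (7.51%) were more than 2-fold higher in the Rgs5/Abcc9-led class and 20 (4.29%) in the other. With the mammary-marker cells included, 55 of 640 (8.59%) and 48 of 640 (7.5%) were. Some of these genes also chose the members, Myl9, Mylk and Notch3 among them, so their levels within the classes are a description only.

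Most contractile genes were higher in the Myh11/Acta2-led class. All 7 measured genes of the list outside the rule had the higher level there and 3 were past 2-fold, with a median log2 ratio of -0.90 against 0.07 over the 457 genes outside the rule. Over all members 7 of 9 were higher there, 4 past 2-fold, while Cald1 was at nearly the same level in both and Vcl was 3.08-fold higher in the Rgs5/Abcc9-led class (1.07 to 10.8, 15 against 5 UMIs). Tagln stood at 892 against 237 CPM (3.76-fold, 1.82 to 8.38), found in 19 of 74 cells against 10 of 100. Tpm2 was at 1370 against 388 CPM (3.53-fold, 2.00 to 6.51), the filament cross-linker Flna at 1530 against 560 CPM (2.73-fold, 1.66 to 4.58) and Tpm1 at 1562 against 840 CPM (1.86-fold, 1.20 to 2.91). Caldesmon, Cald1, differed less, at 1593 against 1228 CPM (1.30-fold, 0.869 to 1.93). Summed over the list, the Rgs5/Abcc9-led class had 0.512 times the level of the other (0.434 to 0.604), 0.480 in the KO and 0.636 in the WT.

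The factor SRF, whose partner is myocardin, binds CArG boxes at many smooth muscle genes. The 250 bases before each start site were therefore searched for this motif on both strands in RefSeq promoters of GRCm38.p6. The promoter table matched 25 of 32 contractile, 15 of 24 pericyte and 16 of 22 basement membrane genes, so Myh11, Tagln, Pdgfrb and Higd1b, among others, were not searched. A box was found for 3 of the 25 contractile genes (12%), 0 of the 15 pericyte genes and 1 of the 16 basement membrane genes (6.25%), against 439 of 27025 genes (1.62%). A match describes the letters and not a bound site. The 3 contractile genes are shown with 10 bases on each side of the box, which is in capitals.
Myl6: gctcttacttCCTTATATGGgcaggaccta
Myl9: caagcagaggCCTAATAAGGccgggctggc
Vcl: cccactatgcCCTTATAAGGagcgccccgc

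The 30-base stretch shown for Myl6, a light chain of myosin, lies at chr10:128493040-128493069 (minus strand), and its box begins 50 bases before the start site. The stretch for Myl9 is at chr2:156775293-156775322 (plus strand) with its box 161 bases before the start site. That for vinculin, Vcl, a linker of actin to adhesions, is at chr14:20929161-20929190 (plus strand) with its box 227 bases before. Their levels did not move one way between the classes. Myl6 was 2.01-fold higher in the Myh11/Acta2-led class (0.954 to 4.33) and Vcl 2.54-fold higher in the Rgs5/Abcc9-led class (0.808 to 10.5), both with intervals that span 1, and Myl9, which chose the cells, was 2.55-fold higher in the Myh11/Acta2-led class.

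Some pericyte genes were found almost entirely in the Rgs5/Abcc9-led class. Kcnj8, the pore of the KATP channel, had 18 UMIs in 11 of the 100 cells and 0 UMIs in the 74 others, at least 4.06-fold higher. Art3 likewise had 18 UMIs against 0. The metalloreductase Steap4 had 26 UMIs against 1 (560 against 31.9 CPM, 17.6-fold, 2.89 to 721), and Higd1b 11 against 1 (7.44-fold, 1.08 to 320). For Steap4 this was 25 against 1 UMIs in the KO and 1 against 0 in the WT, so it rests on the KO mouse. Other genes of the list were at similar levels in both classes, with Pdgfrb at 560 against 510 CPM (1.10-fold, 0.568 to 2.19), Gucy1a3 at 539 against 414 CPM (1.30-fold, 0.641 to 2.77) and Gucy1b3 at 323 against 478 CPM (0.676-fold, 0.308 to 1.48). Cspg4, the NG2 proteoglycan often used to mark pericytes, had 7 UMIs against 9. Over the 6 measured pericyte genes outside the rule 1 passed 2-fold, with a median log2 ratio of 0.22, and the summed list outside the rule was 1.51-fold higher in the Rgs5/Abcc9-led class (1.19 to 1.92), 1.38-fold in the KO and 2.09-fold in the WT.

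Basement membrane collagen followed the Rgs5/Abcc9-led class, while a laminin chain followed the other. Col4a1 stood at 1724 against 574 CPM (3.01-fold, 1.79 to 5.33) and Col4a2 at 1271 against 414 CPM (3.07-fold, 1.66 to 6.10), the 2 chains of the main type IV collagen. Sparc was at 5474 against 2677 CPM (2.04-fold, 1.59 to 2.65) and the laminin chain Lamb1 2.82-fold higher (1.13 to 8.40). In the opposite direction Lamb2 was 2.76-fold higher (1.42 to 5.56) and Sparcl1 1.65-fold higher (1.27 to 2.14) in the Myh11/Acta2-led class. Of 13 measured genes 4 were past 2-fold toward the Rgs5/Abcc9-led class and 1 toward the other, and the summed list was 1.27-fold higher in the former (1.13 to 1.44). All 6 measured fibroblast and progenitor markers, 2 of them outside the rule, were also above 0 in this contrast, with a median log2 ratio of 0.41 and 1 past 2-fold. Outside the rule these markers summed to 2672 against 2422 CPM (1.10-fold, 0.823 to 1.49), 2557 against 2828 CPM in the KO and 3134 against 1244 CPM in the WT. Their part in the matrix genes here and in the ranking that follows was not tested.

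**Figure D3:**
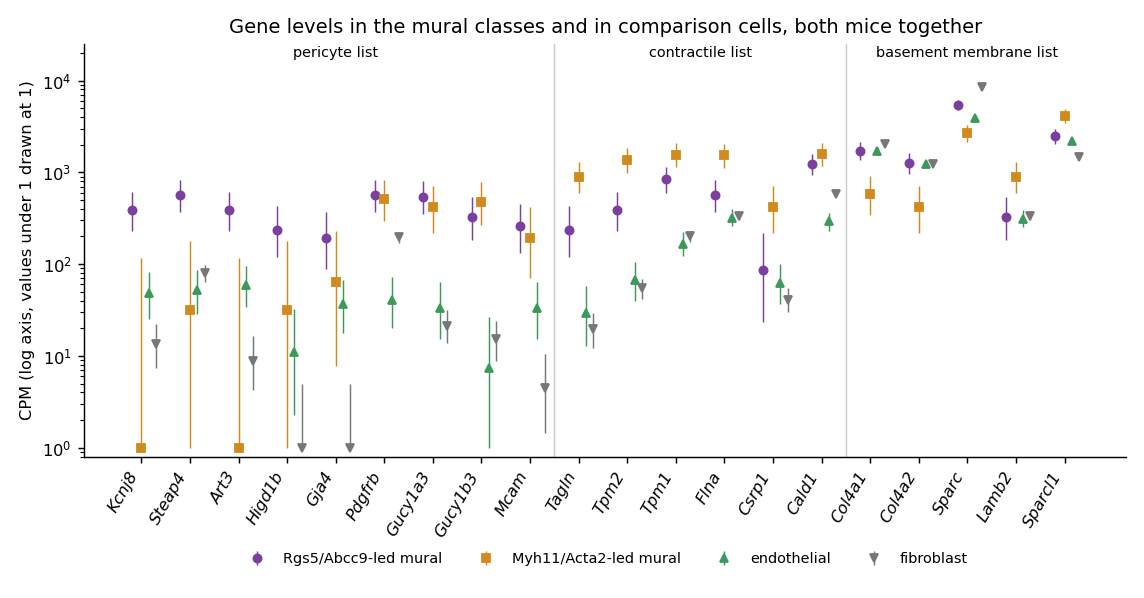
Level (CPM, log axis) of 9 pericyte, 6 contractile and 5 basement membrane genes in Rgs5/Abcc9-led and Myh11/Acta2-led mural cells without mammary transcripts, endothelial cells and fibroblasts, both mice summed, with 95% Poisson bars. Kcnj8 and Art3 are at 0 in the Myh11/Acta2-led class, Tagln and Tpm2 are higher there, and Col4a1 and Col4a2 are higher in the Rgs5/Abcc9-led class.

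Genes among the 12 ranked highest for the Rgs5/Abcc9-led class over all members are given here with their values without mammary-marker cells. Besides Steap4 and both collagen IV chains they included Thy1 (8.79-fold, 2.201 to 76.4), Col6a2 (6.09-fold, 1.87 to 31.3), the protease Adamts15 (4.96-fold, 1.49 to 25.9), the endothelin receptor Ednrb (4.73-fold, 1.41 to 24.8), the G-protein subunit Gnai3 (4.51-fold, 1.34 to 23.7) and periostin, Postn (2241 against 765 CPM, 2.93-fold, 1.87 to 4.78). Fibroblasts held more Postn, at 3722 CPM. Fcgrt and Col5a3 were also among the 12. Thy1 rested on 2 UMIs in the Myh11/Acta2-led class.

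The 12 genes ranked for the Myh11/Acta2-led class over all members were in part those of the mammary-marker cells. Clu was 15.2-fold higher in that class (4.91 to 76.6) and 39 of its 47 UMIs there lay in mammary-marker cells. Trf, the iron carrier transferrin, was 8.76-fold (3.14 to 33.9), the cyclin Ccnd1 7.46-fold (2.25 to 38.8) and Igfbp5 3.34-fold (2.03 to 5.71) higher, of which 32 Trf and 41 Igfbp5 UMIs came from those cells. C3, Tpm2, Csrp1, Cap1, Rps28, Naa50, Senp6 and Nfix were the others. With mammary-marker cells left out, Igfbp5 was 2.18-fold (1.21 to 3.997), Cap1 6.90-fold (1.93 to 37.5) and Senp6 3.70-fold higher (1.07 to 16.1), and the intervals of Clu, Trf, Ccnd1, C3, Rps28, Naa50 and Nfix spanned 1 on 8 to 19 UMIs each. In the same cells Csrp1, a muscle LIM protein, stayed 4.81-fold higher (1.48 to 20.2), and Map3k20 (4.11-fold, 1.85 to 10.001), the dystrophin relative Utrn (3.99-fold, 1.87 to 9.24), the actin scaffold Palld (3.40-fold, 1.56 to 8.01) and the Notch ligand Jag1 (2.59-fold, 1.01 to 7.12) were also higher in that class. The last 4 were picked after their values were seen.

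Between the mice, the members were compared gene by gene over 727 genes with at least 20 UMIs. In the KO 80 (11%) were more than 2-fold higher and 63 (8.67%) lower, and without the mammary-marker cells 64 of 535 (12%) were higher and 42 (7.85%) lower. Of the 727, 39 (5.36%) had sets of the 2 mice that did not overlap. A gene could meet the minimum of 20 UMIs through 1 mouse alone, and a gene that did so had to differ, so these counts describe the measured genes only.

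The 10 genes lowest in the KO included milk proteins and epithelial keratins. Wfdc18 had 0 UMIs in KO members and 113 in WT members, at least 68.8-fold lower, and the caseins Csn2, Csn3 and Csn1s2a were at 0 against 29, 22 and 34. Krt19 had 1 UMI against 25 and Krt18 2 against 24, followed by BC018473 and Fcgbp at 0 against 32 and 28, Trf at 8 against 37 and Clu at 10 against 41. In all other cells of KO and WT, BC018473 was at 0 against 215 CPM and Wfdc18 at 5.85 against 351 CPM. Krt19 did not differ that way there, at 63.7 against 61.8 CPM. Of 14 genes of the mammary list in the table, 5 reached 20 UMIs, and they did so through the WT members, so the minimum fixed their direction. None of them reached 20 UMIs once the mammary-marker cells were removed.

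Pericyte genes were higher in KO members, and part of this went with the mammary-marker cells. Of 6 measured outside the rule, 4 were past 2-fold higher, against 11% of all 727 genes. Their median log2 ratio was 1.35 against 0.08 over the 713 genes outside the rule. Without those cells 1 of 6 was past 2-fold, against 12% of all 535 genes. The median was then 0.75 against 0.00045 over the 522 genes outside the rule. The summed list outside the rule was 2.34-fold higher in the KO (1.79 to 3.10), 1.40-fold without those cells (1.06 to 1.87), 1.15-fold within the Rgs5/Abcc9-led class (0.816 to 1.65) and 1.74-fold within the Myh11/Acta2-led class (1.03 to 3.13). In all other cells the same list was 0.787 times the WT level (0.707 to 0.877). Rgs5 chose both the members and the class, so its KO over WT folds are a description only, at 2.83 over all members, 1.54 without mammary-marker cells and 1.28 within its class.

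Some genes of the 10 highest in the KO met the minimum of 20 UMIs through the KO alone, so their values without the mammary-marker cells are a description. Steap4 had 5, 4, 3, 8 and 7 UMIs against 0, 0, 0, 0 and 1 (8.10-fold, 1.34 to 332). A single Steap4 UMI put 1 WT set at 837 CPM, since WT sets held between 752 and 8294 UMIs. The angiopoietin-like Angptl2 had 32 UMIs against 1 (9.60-fold, 1.60 to 391). Fibrillin, Fbn1, had 28 UMIs against 1 (8.40-fold, 1.39 to 344), and in all other cells was at 864 against 1063 CPM. Fbn1 is one of the fibroblast and progenitor markers. Outside the rule these summed to 2776 CPM in KO and 2222 CPM in WT members. They were at 2828 against 1244 CPM in the Myh11/Acta2-led class and 2557 against 3134 CPM in the other. Their part in the Fbn1 value was not tested. Notch3, the receptor that maintains mural identity, chose the cells itself and had 5, 8, 4, 5 and 3 UMIs in the KO sets and 0, 0, 0, 1 and 0 in the WT sets, and in all other cells it was at 9.09 and 16.2 CPM in KO and WT. Cspg4 had 17 UMIs in KO members and 0 in WT members.

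Immunoglobulin and immune genes were also among those highest in KO members. Ighd had 33 UMIs against 0, with 4, 3, 7, 9 and 10 in the KO sets, Igkc 29 against 0 and Arhgdib 20 against 0. Outside the immune genes, Rpsa-ps10 was at 28 against 1 and Syne1 at 24 against 1. In all other cells of KO and WT, Igkc was at 1033 against 284 CPM and Arhgdib at 504 against 209 CPM. Rpsa-ps10 stood there at 685 against 13.2 CPM, and Syne1 at 87.4 against 95.6 CPM. B cells were 919 of the KO and 42 of the WT cells, and Ighd was 7.09-fold higher in the KO over all other cells (5.32 to 9.66). Over the whole table, fewer than 2 immune-marker UMIs were found in 2705 of 8985 KO and 1133 of 1929 WT cells. Among members the numbers were 62 of 144 and 59 of 77, a difference in the same direction. At least 2 were thus found in 82 of 144 KO and 18 of 77 WT members. Leaving these cells out together with the mammary-marker cells, Steap4 was at 712 against 70.9 CPM (10.05-fold, 1.59 to 419) and, of the genes that chose the cells, Rgs5 at 7434 against 3614 CPM, while Notch3 had 16 UMIs against 0.

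No contractile gene and some basement membrane genes passed 2-fold between the mice. None of the 9 measured contractile genes outside the rule did, against 11% of all genes higher and 8.67% lower, with a median log2 ratio of 0.18, and the summed list outside the rule was 1.12-fold higher in the KO without mammary-marker cells (0.924 to 1.37). Tagln was at 450 against 672 CPM (0.669-fold, 0.337 to 1.40). Myh11 and Acta2, which chose the cells, stood at 3024 against 2584 CPM and 1644 against 982 CPM. For basement membrane the sum was 1.71-fold higher over all members (1.505 to 1.94) and 1.15-fold without mammary-marker cells (1.00 to 1.33), and 3 and 0 of 13 genes passed 2-fold higher. In all non-mural cells it was 0.589 times the WT level (0.576 to 0.602). Col4a1 stood at 1210 against 1395 CPM (0.867-fold, 0.553 to 1.40).

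**Figure D4:**
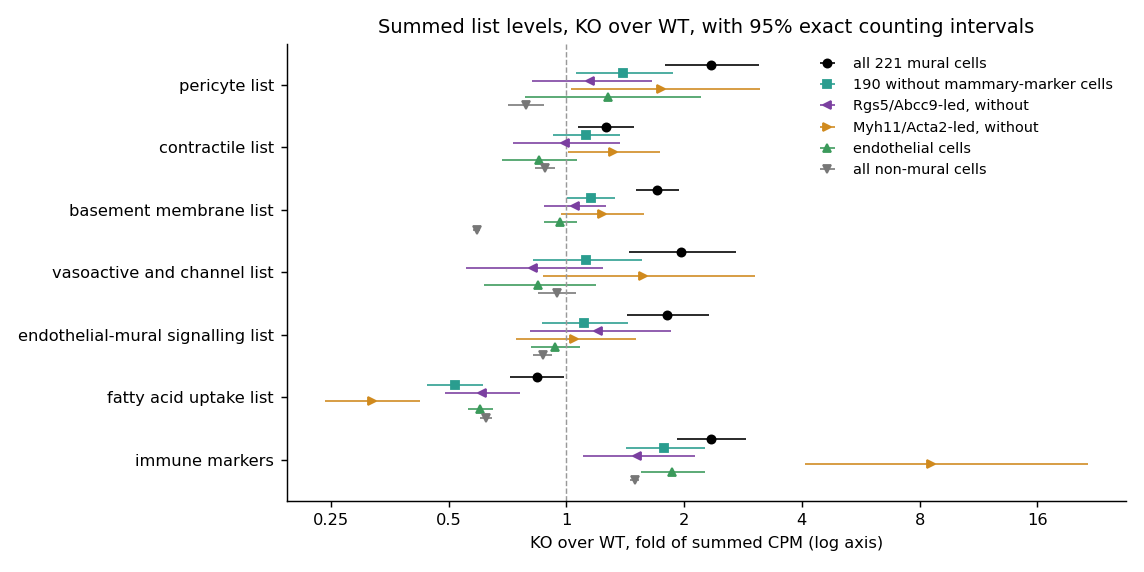
KO over WT fold of the summed CPM of 7 gene lists (log axis, rule genes left out) in all 221 mural cells, the 190 without mammary-marker cells, each of the 2 classes, endothelial cells and all non-mural cells, with 95% exact counting intervals. The pericyte sum moves from 2.34 to 1.40 when mammary-marker cells are removed, and the fatty acid uptake sum lies below 1 in every group shown.

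Of the 3 measured genes of fatty acid uptake, Fabp4 and Cd36 were lower in the KO and Lpl was not. Without the mammary-marker cells 1 passed 2-fold lower, against 7.85% of all 535 genes. Over all members 0 did, against 8.67% of all 727 genes. Such genes supply the adipocytes with lipid from blood, with Fabp4 as the intracellular carrier and Cd36 as the membrane translocase, and both are classical products of capillary endothelium. Fabp4 stood at 2278, 5025, 2275, 3514 and 4073 CPM in the KO sets and 6729, 7429, 9309, 7716 and 16736 CPM in the WT sets, without the mammary-marker cells. Every WT set was above every KO set, as sets did not overlap for 31 of the 535 genes (5.79%), and the totals were 3536 against 7958 CPM (0.444-fold, 0.361 to 0.549). With all members the totals were 3493 against 4594 CPM (0.760-fold, 0.620 to 0.934), and the sets overlapped. Cd36 was at 1830 against 3462 CPM (0.529-fold, 0.388 to 0.724), with sets that overlapped. The lipoprotein lipase Lpl, at 512 against 310 CPM (1.65-fold, 0.683 to 4.82), lay in the other direction with an interval that spans 1.

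The difference was found in other cells as well, and its size in members depended on the mammary-marker cells. Over all members the summed list in the KO was 0.841 times that in the WT (0.719 to 0.986), and 0.766 within the Myh11/Acta2-led class (0.587 to 0.997). Without mammary-marker cells these values were 0.517 (0.439 to 0.610) and 0.319 (0.241 to 0.422), the latter on 21 WT cells. The list was at 0.609 times the WT level within the Rgs5/Abcc9-led class (0.489 to 0.762), 0.601 in endothelial cells (0.558 to 0.648) and 0.623 over all non-mural cells (0.600 to 0.647). Fabp4 in B cells, a type that should lack it, was at 387 CPM in the KO and 773 CPM in the WT (442 to 1256). The water channel Aqp1 (713 against 2170 CPM, 0.329-fold, 0.212 to 0.512) and the endothelial diaphragm protein Plvap (186 against 1085 CPM, 0.171-fold, 0.0769 to 0.365) were lower in KO members too, and in endothelial cells at 0.705-fold (0.594 to 0.840) and 0.448-fold (0.326 to 0.625), and both were picked after their values were seen. Endothelial markers outside the rule moved with these genes in part. Without mammary-marker cells they summed to 1551 CPM in KO and 2377 CPM in WT members (0.652-fold, 0.456 to 0.946), 1371 against 3484 CPM in the Myh11/Acta2-led class (0.394-fold, 0.2295 to 0.678) and 1642 against 1621 CPM in the Rgs5/Abcc9-led class (1.01-fold, 0.569 to 1.92). Over all members they were at 1525 against 1392 CPM. The part of endothelial RNA in the fatty acid values was not tested.

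**Figure D5:**
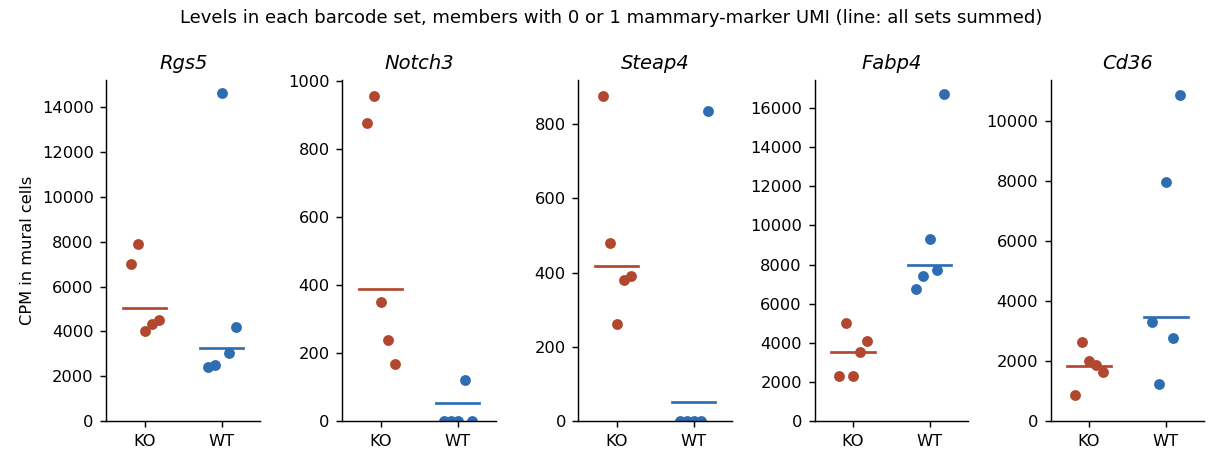
CPM of 5 genes in the mural cells of each technical barcode set (points) and of all sets of a mouse summed (line), without cells holding at least 2 mammary-marker UMIs. Fabp4 is higher in every WT set than in any KO set, while Rgs5, Steap4 and Cd36 overlap between the mice and the WT values of Notch3 and Steap4 rest on 1 UMI each.

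By GENCODE vM21 on GRCm38, the build of the deposited counts, Rgs5 is at chr1:169655501-169695813 (plus strand), Abcc9 at chr6:142587862-142702315 (minus), Myh11 at chr16:14194535-14291372 (minus), Acta2 at chr19:34241090-34255590 (minus), Mylk at chr16:34745210-35002420 (plus), Notch3 at chr17:32120820-32166852 (minus), Tagln at chr9:45929619-45936058 (minus) and Steap4 at chr5:7960457-7982213 (plus).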

How the data were processed

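The data were 3' single-cell counts of the stromal vascular fraction, digested with collagenase and taken without sorting, from 1 mouse per genotype. The authors loaded Seq-Well S3 arrays, demultiplexed with bcl2fastq 2.20, aligned with STAR to mm10, and deposited 1 table of UMI counts of 14623 genes by 10914 cells. Cells in it had 101 to 994 genes, and no doublet removal is named in the sources used here. Their methods name a down-sampling of batches by depth, and whether the deposited counts precede it was not given. Genotype came from the column names. The 10 barcode sets, with 68989 to 701136 UMIs each, matched no single labelled sample, so they show technical spread only. 36 barcodes occurred in more than 1 set (103 cells, 5 of them members).

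Member cells were found by the stated rule, raw UMIs were summed per mouse and class, and CPM of all UMIs compared with Python 3.11.15, numpy 2.4.6 and scipy 1.17.1. The members and all gene lists were chosen with earlier results of these data known. Genes needed 20 UMIs in the cells compared, log2 ratios had 50 CPM added, and "past 2-fold" means a log2 ratio beyond 1. Fold values beside intervals had nothing added, and a gene at 0 was set to 3 counts. No test between genotypes or classes was run, since each genotype is 1 mouse, and Dixon's criterion was used only to find sets that stood apart. Endothelial cells had an endothelial sum of at least 2 that exceeded the mural sum, fibroblasts at least 3% of UMIs from the 5 stromal genes, and B cells 2 UMIs of a B cell marker list (Cd79a, Cd79b, Ms4a1 and Ighd among it) and none of the other rules.

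Genes were named as the 20 highest in members over other cells, the 12 in each direction between classes with the same sign in both mice, the 10 in each direction between mice that kept their sign with each set left out, and list genes. A gene that met these rules is not reported here. Steps were tested on simulated data. edgeR 4.0.16 in R 4.3.3 gave the scaling factors of 2 alternatives (TMM and the size factors of DESeq2). Intervals cover counting error only, and free RNA and doublets were not removed.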

Additional observations from a re-analysis of the deposited data

Results flagged for a closer look

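Of 52 groups of 5 technical sets examined for a set far from the others of its mouse, 6 had one. The criterion gives about 1 in 20 by chance for continuous values, which does not hold for counts near 0. The Rgs5/Abcc9-led share of classed mural cells was 88.9% in KO5_p3 (16 of 18 cells) against 50 to 60% in the other KO sets, and Abcc9, one of the genes that define that class, stood in the same cells at 1077 CPM against 400 to 570 CPM. The endothelial share was 8.67% in WT3_p3 against 4.56 to 5.69%. Summed immune markers in mural cells reached 14068 CPM in KO6_p1 against 5503 to 7755 CPM. Notch3 was at 74.4 CPM in WT4_p2 and Steap4 at 415 CPM in WT4_p3, with 1 UMI each and 0 in the other WT sets, which meets the criterion by construction.

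Of 20 pairs of list contrasts, 6 had opposite signs, a difference that was not tested. As log2 ratios of summed CPM, contractile genes in KO over WT were at -0.015 in Rgs5/Abcc9-led and 0.88 in Myh11/Acta2-led cells, and vasoactive genes at -0.27 and 1.91. Without the mammary-marker cells the second values were 0.39 and 0.64. Signalling genes between endothelial and mural cells, as Rgs5/Abcc9-led over Myh11/Acta2-led, were at -0.59 in the KO and 0.50 in the WT, where the WT value became -0.78 without those cells. Fibroblast markers were at -0.14 and 0.20 in that contrast and at -0.28 and 0.053 as KO over WT in the 2 classes, where the second values became 1.30 and 1.15 without those cells, on 10 UMIs in WT Myh11/Acta2-led cells. Immune markers between the classes were at -0.025 in the KO and 1.48 in the WT, and the WT value became 2.42 without those cells.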

How the results depend on the processing

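No paired analysis was possible because the barcode sets are technical parts of 1 mouse per genotype, could not be assigned to the numbered samples, and no result comes from a test. Of 30 alternatives, 3 were added after the data were seen. Each of the 44 named genes could be computed under 9 to 27 of them, where it reached the UMI minimum, and none changed sign there. Below that minimum, Clu, Krt18 and Krt19, lower in the KO over all members, were at 1.38, 1.05 and 0.62 as log2 KO over WT within Rgs5/Abcc9-led cells, on 3, 2 and 1 UMIs in the KO and 0 in the WT.

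The share difference of -2.39 points became -1.50 with a minimum sum of 3, -3.82 with at least 200 genes per cell, -1.08 without mammary-marker cells, -0.92 with each cell thinned to 200 UMIs and -1.40 without immune-marker and mammary-marker cells. The class share difference of 29.3 points became 42.7 with at least 200 genes, 8.38 without mammary-marker cells and 16.6 without those and immune-marker cells. Leaving out single sets gave -2.84 to -2.10 and 24.1 to 32.7 points. For the share difference of -1.08 without mammary-marker cells it gave -1.43 to -0.564, also chosen after the data were seen.

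Counts of genes past 2-fold are given with the genes measured where these differ. For 55 of 640 genes higher in Rgs5/Abcc9-led cells the alternatives gave 35 of 466 without mammary-marker cells, 26 of 188 without those and immune-marker cells, 20 with 200 CPM added, 9 of 140 with 50 UMIs and 686 of 9735 with 1 UMI required (43 to 63 without single sets). For 48 higher in Myh11/Acta2-led cells they gave 20, 22, 19, 9 and 719, with 23 of 394 at a minimum sum of 3, 31 by Rgs5 against Myh11 alone and 28 to 47 without single sets, the lowest without WT3_p2. For 80 of 727 higher in the KO they gave 24 of 202 without immune-marker and mammary-marker cells, 47 of 284 without immune-marker cells, 36 with 200 CPM, 14 of 155, 952 of 9914, 34 of 228 within Rgs5/Abcc9-led and 36 of 216 within Myh11/Acta2-led cells (58 to 102). For 63 lower in the KO they gave 18, 33, 26, 8, 857, 23 and 40, and 32 of 437 at a minimum sum of 3 (44 to 61).

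List medians here include genes of the rule. The contractile class median of -0.71 became -0.50 (minimum sum of 3), -0.93 (no immune-marker cells), -0.90 (no mammary-marker cells), -1.29 (both kinds left out) and -0.995 (cells with 1 pair only). The pericyte median of 1.39 between mice became 0.68 without mammary-marker cells, 0.94 with 200 CPM, 0.89 with both kinds left out, 0.34 and 2.23 within the classes. The contractile median of 0.17 became 0.61 without immune-marker cells, -0.057 and 0.997 within the classes and -0.044 to 0.29 without single sets, the lowest without KO6_p2. The signalling median of 1.14 became -0.40 with both kinds left out and -0.17 within Rgs5/Abcc9-led cells. TMM scaling moved all log2 ratios by -0.06 between classes and -0.11 between mice. The causes were not tested.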

Other observations

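The 22 immediate early genes, which rise within minutes of tissue digestion, summed to 1370 CPM in members (1152 to 1617), 1495 CPM in the KO and 1142 CPM in the WT, against 1912 CPM in endothelial cells and 1567 CPM in fibroblasts. Without the mammary-marker cells their sum was 0.528 times as high in Rgs5/Abcc9-led as in Myh11/Acta2-led cells (0.357 to 0.777). The 21 genes of Hedgehog signalling and the BBSome gave 41 UMIs in all members, 404 CPM (290 to 548), against 686 CPM in fibroblasts and 251 CPM in endothelial cells. None had the 20 UMIs needed to compare single genes between the mice. Without the mammary-marker cells their sum was 29 UMIs in the KO and 3 in the WT, 450 against 155 CPM. The interval of that log2 fold, -0.153 to 3.90, spans 0.

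Sparse counts set the limits. The members of the WT without mammary-marker cells hold 19351 UMIs, where 0 UMIs allows up to 155 CPM for a gene such as Cspg4.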
